A study of Caenorhabditis elegans with 4 samples.

Results

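The vitellogenins, the yolk proteins of Caenorhabditis elegans, were followed in wild-type N2 worms given rifampicin (RIF) or DMSO as the control. They are represented by every probe set whose annotation names only vit genes. These are 5 of 17118 genes named alone by a probe set, on 10 of the 22548 probe sets tested, of which 8 name a single gene (3 for vit-4, 2 for vit-6 and 1 each for vit-1, vit-2 and vit-5) and 2 name vit-4 and vit-5 together. No probe set used here names vit-3. Total RNA of whole animals was hybridised to Affymetrix expression arrays, with 2 arrays of worms given RIF and 2 of worms given DMSO, labelled as independent biological replicates. All worms were adults on day 8 of adulthood, kept from the young adult stage in liquid medium and fed once more on day 5. Their food was heat-killed E. coli OP50 that carried the L4440 vector. Carbenicillin, amphotericin B and FuDr, which blocks progeny, were added. For FuDr the labels give 0.6 mM, in the paper the strength of the solution added to its cultures. The labels give no dose of RIF, and their tissue field speaks of control and idr-1 RNAi where the titles and the design text give DMSO and rifampicin, which were followed here. The values are log2 levels per probe set as deposited, and differences are RIF minus DMSO.

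Vitellogenins are large lipid-carrying proteins related to the apolipoproteins. They are made in the intestine of adult hermaphrodites, secreted into the body cavity and taken up by growing oocytes through the receptor RME-2. vit-1 to vit-5 lie on the X chromosome and vit-6 on an autosome. The product of vit-6 is cut into 2 smaller yolk proteins, and the products of the other genes stay whole. vit-3 and vit-4 are close neighbours and near-identical copies, and vit-5 resembles both, so the signal of these 3 genes cannot be told apart on probe sets with shared probes. Worms go on making yolk after egg laying ends, and it then collects in the body cavity.

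All 10 vitellogenin probe sets read lower on both RIF arrays than on both DMSO arrays. A probe set is said to have risen or fallen when it met the study's criterion in limma, an unadjusted p under 0.05 with at least a 2-fold change. By it 6 of the 10 fell and 0 rose, against 1.53% of all probe sets that fell and 2.67% that passed in either direction. The count was 4 with the methods' t-test, 0 with its Welch version, and 1, vit-1, when only the 3 probe sets without endings for shared probes were kept. The calls were those of vit-1, of vit-5, of 2 of the 3 probe sets of vit-4 and of both shared ones. The other 4, those of vit-2 and vit-6 and the dim probe set of vit-4, did not reach a 2-fold change. The median difference of the 10 was -1.54, a 2.91-fold lower level, where the median of all probe sets was 0.03. An unadjusted p under 0.05 was reached by 9 of the 10, against 4.35% of all probe sets with a p under 0.05 and a lower level with RIF. Both RIF arrays lay below both DMSO arrays for 15.7% of all probe sets. After Benjamini-Hochberg adjustment over all probe sets 0 of the 10 passed (adjusted p of 0.336 to 0.643 from limma). Of all probe sets 0.0266% passed with a lower level. Since 5 of the 6 calls come from probe sets of vit-4 and vit-5, which share sequence, they are not separate observations.

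**Figure D1:**
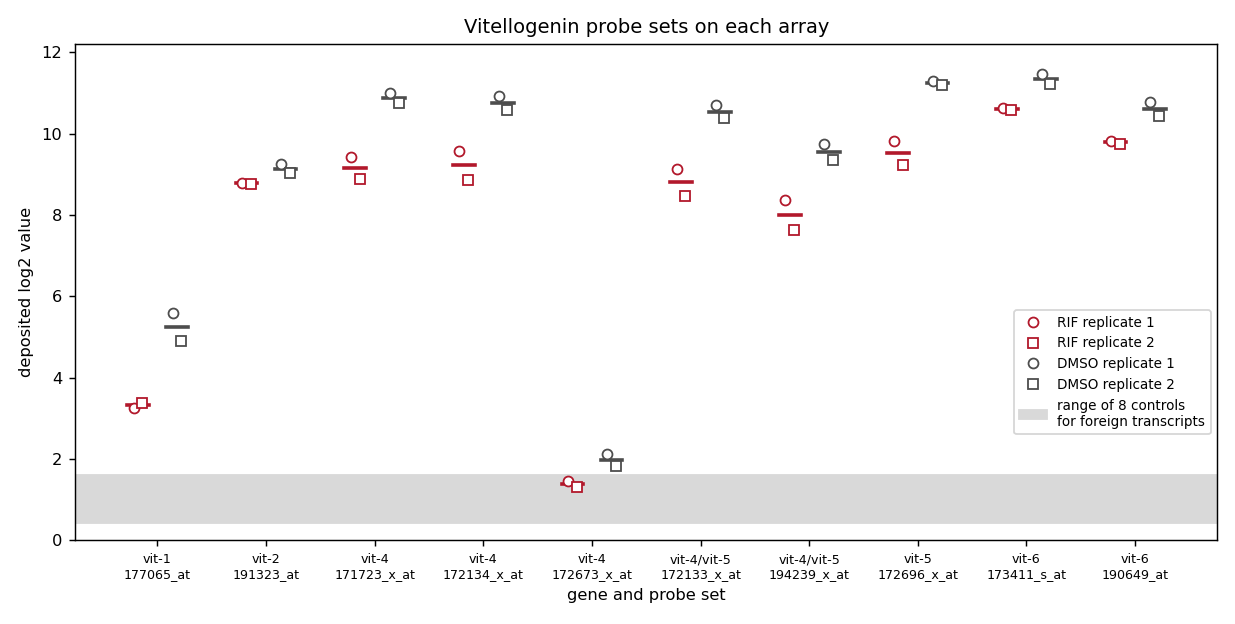
Deposited log2 values of the 10 vitellogenin probe sets (horizontal axis) on each of the 4 arrays. RIF is in red and left of DMSO in grey, circles and squares are replicates 1 and 2, lines are group means of 2 arrays, and the band is the range of 8 controls for foreign transcripts (0.44 to 1.62). Both RIF points lie below both DMSO points for every probe set. Only 172673_x_at of vit-4 reaches the band, with both of its RIF points inside it.

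vit-5, which encodes one of the large yolk proteins, read 9.81 and 9.22 on the RIF arrays and 11.28 and 11.20 on the DMSO arrays. The groups did not overlap, and the gap between them, 1.39, was wider than the 0.59 between the RIF arrays and the 0.08 between the DMSO arrays. vit-5 fell 3.31-fold (log2 difference -1.73, standard error 0.25, 95% interval -2.41 to -1.04, adjusted p = 0.336 from limma). The difference was lower for 0.714% of all probe sets.

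vit-4, the near neighbour and near copy of vit-3, read 9.43 and 8.87 with RIF against 10.99 and 10.76 with DMSO on its brightest probe set, 171723_x_at. On 172134_x_at it read 9.58 and 8.86 with RIF against 10.93 and 10.58 with DMSO. RIF replicate 2 was the lowest array on both. vit-4 fell 3.30-fold on the first of these (log2 difference -1.72, standard error 0.25, adjusted p = 0.338 from limma) and 2.91-fold on the other (-1.54, standard error 0.31, adjusted p = 0.456 from limma), where the methods' t-test did not call it. The dim probe set of vit-4, 172673_x_at, read 1.46 and 1.32 with RIF and 2.12 and 1.84 with DMSO. Its RIF values lie within the range of the controls for transcripts foreign to the worm, so its difference of -0.59 is measured against background.

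The 2 probe sets that name vit-4 and vit-5 together gave similar values. 172133_x_at read 9.14 and 8.45 with RIF and 10.69 and 10.39 with DMSO, a 3.35-fold fall (log2 difference -1.74, standard error 0.29). 194239_x_at read 8.37 and 7.64 with RIF and 9.74 and 9.35 with DMSO, a 2.92-fold fall (-1.55, standard error 0.32). 194239_x_at was not called by the methods' t-test, nor by limma when DMSO replicate 1 was omitted (-1.35). Across the 5 bright probe sets of vit-4 and vit-5 the falls ranged from 2.91-fold to 3.35-fold, and the lowest DMSO value stood 0.98 to 1.39 above the highest RIF value.

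vit-1, whose product resembles that of vit-2, read 3.25 and 3.38 with RIF and 5.59 and 4.90 with DMSO. All of these lie above the range of the foreign controls, and the DMSO arrays differed from each other by 0.69. It fell 3.81-fold, with a log2 difference of -1.93 (standard error 0.28, 95% interval -2.70 to -1.16, adjusted p = 0.338 from limma), the lowest of the 10. Only 0.585% of all probe sets had a lower difference. Its probe set is the only one of those that fell whose name carries no ending for shared probes.

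vit-6, the gene on the autosome, read 9.82 and 9.74 with RIF and 10.78 and 10.43 with DMSO on 190649_at. On 173411_s_at it read 10.62 and 10.57 with RIF and 11.47 and 11.22 with DMSO. On both probe sets the RIF arrays lay within 0.08 of each other and clearly under the DMSO arrays, with gaps of 0.61 and 0.60. The differences were -0.83 (standard error 0.18, 95% interval -1.34 to -0.32, adjusted p = 0.489 from limma) and -0.75 (standard error 0.16, 95% interval -1.19 to -0.30, adjusted p = 0.486 from limma). These are 1.77-fold and 1.68-fold lower levels and did not meet the 2-fold criterion. 190649_at met it without DMSO replicate 2, with a difference of -1.002. The value of 11.47 stands near 11.59, the highest value in the table.

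vit-2 read 8.78 and 8.77 with RIF and 9.25 and 9.02 with DMSO. It had the smallest difference of the 10, -0.36 (standard error 0.16, 95% interval -0.80 to 0.07, adjusted p = 0.643 from limma), a 1.29-fold lower level, and 13.1% of all probe sets had a lower one. The arrays of the groups did not overlap, but the gap of 0.24 was about as wide as the 0.23 between the DMSO arrays. The interval includes 0 and does not reach a 2-fold fall.

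**Figure D2:**
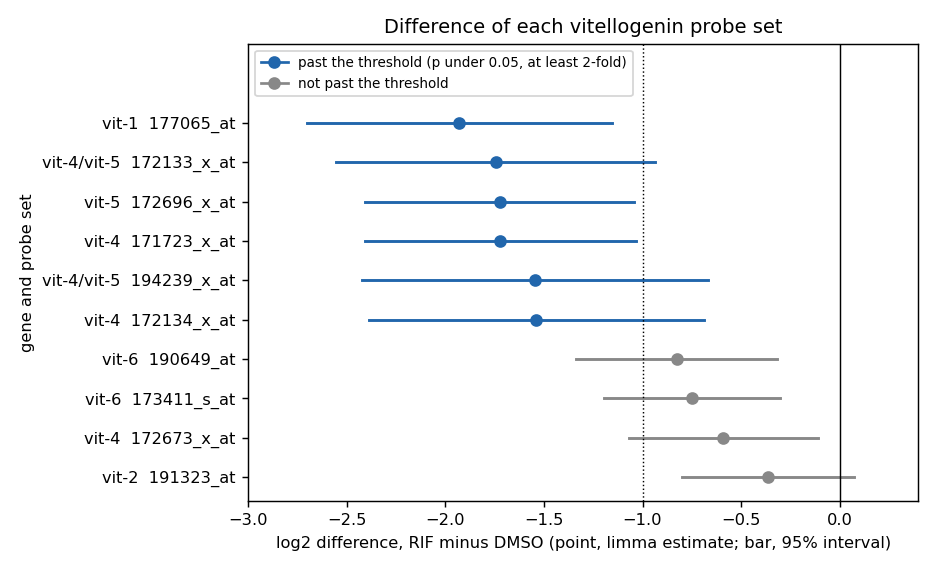
Log2 difference, RIF minus DMSO, of each vitellogenin probe set (points) with its 95% interval from limma (bars). Blue marks the 6 past the study's criterion, from -1.93 for vit-1 to -1.54 for vit-4, and grey the 4 that were not, from -0.83 for vit-6 to -0.36 for vit-2, whose interval alone includes 0. The dotted line is a 2-fold fall.

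The estimated changes of the members thus differed in size. This was examined within each array, so that a shift of a whole array cancels. The log2 value of vit-5 minus that of vit-6 (190649_at) was -0.01 and -0.52 on the RIF arrays and 0.50 and 0.77 on the DMSO arrays. That of vit-5 minus vit-2 was 1.03 and 0.45 with RIF and 2.03 and 2.18 with DMSO, and that of vit-6 minus vit-2 was 1.04 and 0.97 with RIF and 1.53 and 1.41 with DMSO. In these comparisons the groups did not overlap, with changes of -0.90, -1.36 and -0.46. For vit-4 (171723_x_at) minus vit-5 the values were -0.38 and -0.35 with RIF and -0.29 and -0.44 with DMSO. This change of 0.005 lay within the spread of overlapping groups. Both probe sets carry an ending for shared probes, so it cannot show whether these genes changed alike. For vit-1 minus vit-5 the groups overlapped too, with a change of -0.20. Of 7 such pairs, chosen after the values were seen, 5 showed no overlap, each with p = 0.333 in a two-sided exact permutation test (0.467 after Benjamini-Hochberg over the 7). With 2 arrays against 2 this is the smallest p the test can give, so it cannot decide whether the members differed. The pairs are not separate observations, since each holds vit-5 or vit-2, and vit-5 minus vit-6 enters with both vit-6 probe sets.

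The arrays of a group also differed in the same direction across most members. DMSO replicate 1 lay above DMSO replicate 2 on all 10 probe sets, by 0.08 to 0.69, where this held for 43.6% of all probe sets. RIF replicate 1 lay above RIF replicate 2 on 9 of the 10, all but vit-1, against 49.1% of all. This gap was 0.56 to 0.73 on the 5 bright probe sets of vit-4 and vit-5, but 0.01 to 0.08 on those of vit-2 and vit-6. Degraded RNA reads lower at the 5′ than at the 3′ end of a transcript. The 5′ minus 3′ difference of control transcripts had a median of -1.28 and -1.25 on the RIF arrays and of -0.99 and -2.16 on DMSO replicates 1 and 2. Without DMSO replicate 2, the lowest in that measure, 7 vitellogenin probe sets fell with a median difference of -1.73, but 735 of all probe sets fell, against 346 with every array. When DMSO replicate 1 was omitted instead, 5 fell with a median of -1.36, and 377 of all fell. The part of RNA quality in the vitellogenin values was not tested further.

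Among the 535 probe sets with a mean level of at least 8, a limit chosen after the values were seen, the median difference was 0.10, and 39 fell and 6 rose. They hold 8 vitellogenin probe sets, of which 5 fell, all of them of vit-4 and vit-5 and part of the 39. Of all 22548 probe sets 346 fell and 257 rose, so falls made up a larger share of the bright ones. The genome around the yolk genes was also examined. The RefSeq annotation (WBcel235), used only for the order of genes, gives 10 protein-coding neighbours of vit-1 to vit-6 other than vit genes, of which 8 were measured. Of these 0 rose and 0 fell, with differences from -0.82 to 0.61 and a median of -0.02. The lowest was that of spp-14, a saposin-like gene beside vit-1, which read 7.02 and 7.38 with RIF and 8.18 and 7.86 with DMSO (adjusted p = 0.515 from limma). The neighbours T27A10.5, K07H8.7 and K07H8.8 lay within the range of the foreign controls on every array, where a fall cannot be seen. Of all probe sets only 1.53% fell and 1.14% rose, so a count of 0 among 8 is close to that share. Probe sets of the other genes on the X chromosome, 3030 in number, had a median difference of 0.07, against 0.02 for the 17665 on other chromosomes.

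**Figure D3:**
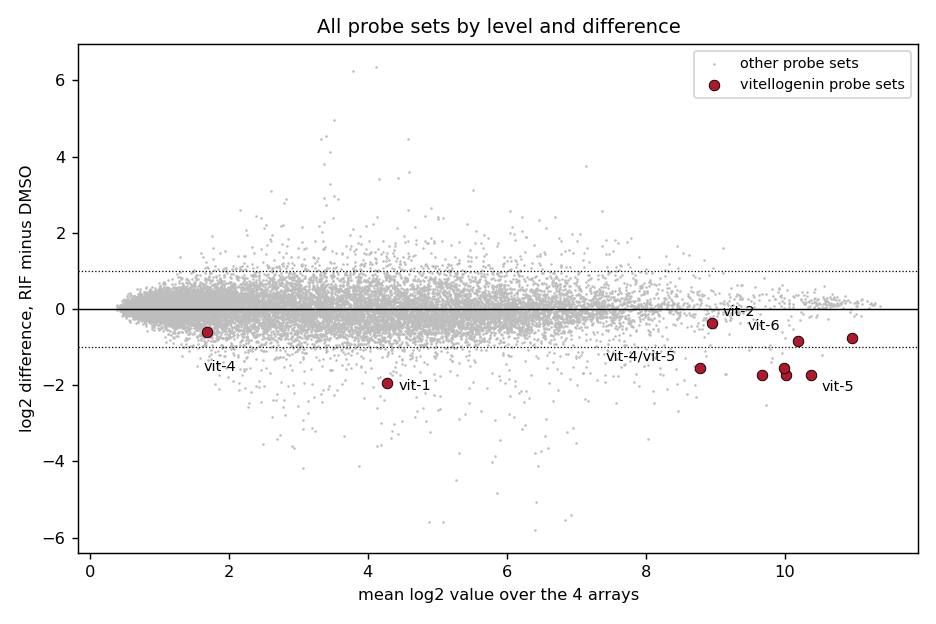
Log2 difference, RIF minus DMSO (vertical axis), against the mean log2 value over the 4 arrays (horizontal axis) for all 22548 probe sets in grey, with the 10 vitellogenin probe sets in red. Dotted lines mark a 2-fold change. The red points lie below 0, from -0.36 for vit-2 to -1.93 for vit-1, and 8 of them have a mean level of at least 8.

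Yolk is loaded with lipid, taken up and controlled by other genes, of which 38 were measured. On the brightest probe set of each gene 0 fell and 1, sgk-1, rose, and their median difference was 0.15. On dimmer probe sets of these genes 1 call was made, a fall of daf-15, the Raptor subunit of TOR complex 1. Over all probe sets 1.53% fell and 1.14% rose, so these counts are close to those shares. SGK-1 is a serine/threonine kinase that acts with TOR complex 2 and the insulin pathway, and its loss lowers vitellogenin expression. sgk-1 read 5.87 and 5.64 on the RIF arrays and 4.68 and 4.65 on the DMSO arrays, with no overlap (log2 difference 1.09, standard error 0.16, adjusted p = 0.338 from limma). It did not reach 2-fold when RIF replicate 1 was left out (0.97) or after centring on ribosomal protein probe sets (0.93).

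dsc-4 encodes the microsomal triglyceride transfer protein, which loads lipid onto yolk particles. It read 3.47 and 3.27 with RIF and 3.68 and 3.03 with DMSO, so the groups overlapped (difference 0.01, of either sign across scalings). rme-2, the yolk receptor of the oocyte, read 7.29 and 7.85 with RIF and 8.39 and 7.92 with DMSO. Its difference was -0.58 (standard error 0.29, adjusted p = 0.666 from limma), and 0.07 separated the nearest arrays of the groups. None of the 14 genes of yolk uptake rose or fell (median 0.17, from -0.73 for rme-8 to 0.65 for rab-5). They also comprise clathrin, dynamin, adaptor and Rab genes of endocytosis and recycling. Of all probe sets 2.67% passed in either direction, a share to which 0 of 14 is close.

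Of 11 transcription factors and cofactors of the yolk genes, 0 rose and 0 fell, with a median of 0.23. With 2.67% of all probe sets past the criterion in either direction, 0 of 11 is close to that share. pqm-1, a zinc finger factor that binds the DAF-16-associated element, read 7.03 and 7.05 with RIF and 6.29 and 6.39 with DMSO. Its groups did not overlap, and the arrays of each lay within 0.10 of each other, but the difference of 0.70 (standard error 0.14, adjusted p = 0.457 from limma) was under 2-fold. The activators of vitellogenin transcription CEH-60 (PBX) and UNC-62 (MEIS) form a complex. ceh-60 read 4.48 and 4.01 with RIF and 3.97 and 3.07 with DMSO (difference 0.73, standard error 0.38), and it passed without DMSO replicate 1 (1.18). unc-62 read 4.12 and 4.19 with RIF and 3.82 and 4.03 with DMSO (0.23, standard error 0.16). elt-2, the GATA factor of the intestine, read 4.89 and 4.42 with RIF and 4.25 and 3.79 with DMSO (0.63, standard error 0.27). All of these had positive differences on every probe set of their own.

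daf-16, the FOXO factor downstream of insulin signalling that lowers vitellogenin expression, read 3.81 and 4.55 with RIF and 4.52 and 4.29 with DMSO on its brightest probe set. The groups overlapped (-0.23, standard error 0.31), and its other probe sets gave 0.12, 0.64 and -0.02. The value was 0.15 without RIF replicate 1. mab-3, which represses yolk genes in males, had both groups within the range of the foreign controls on every array, and so had daf-2, the insulin receptor (1.45 and 1.26 with RIF, 0.89 and 0.97 with DMSO). lin-29, a zinc finger factor of developmental timing, read 2.06 and 2.10 with RIF and 2.21 and 1.87 with DMSO, with overlap. rict-1, a subunit of TOR complex 2, read 5.89 and 6.30 with RIF and 6.61 and 6.48 with DMSO (difference -0.45, standard error 0.20). daf-15 fell on its dimmer probe set (1.73 and 1.97 with RIF, 3.39 and 2.43 with DMSO, difference -1.06), but its brighter one read 4.78 and 5.18 with RIF and 5.36 and 5.43 with DMSO and did not pass (-0.41). Apart from sgk-1, none of the 12 signalling genes rose or fell on its brightest probe set, and their median was -0.04. At the share of 2.67% of all probe sets past the criterion, a list this short would hold few calls.

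**Figure D4:**
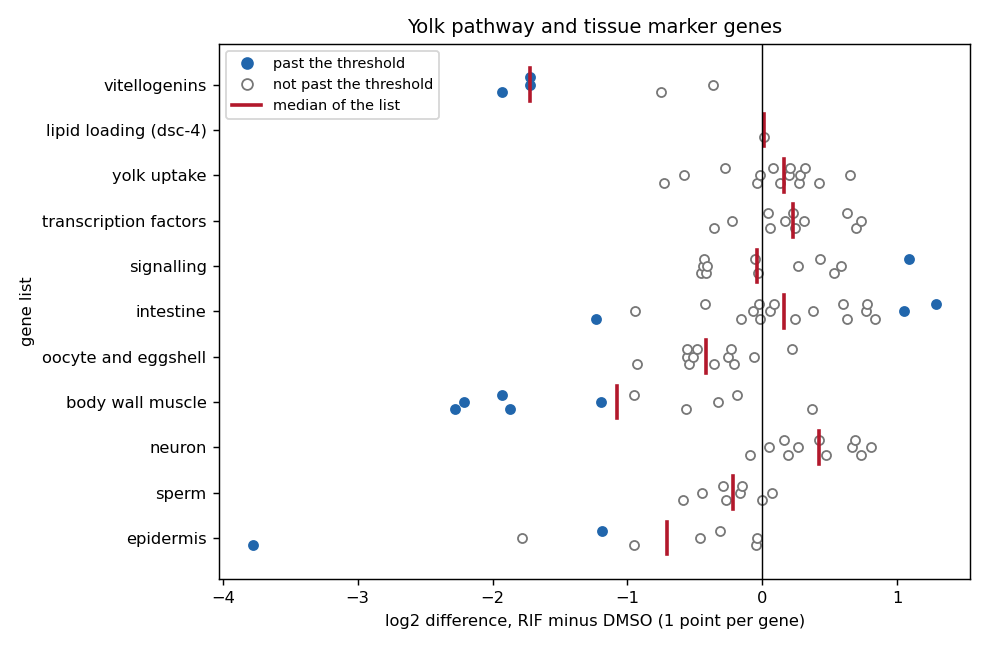
Log2 difference, RIF minus DMSO, of the genes of each list (1 point per gene, on its brightest probe set). Filled points passed the study's criterion, open points did not, and the red line is the median of the list. The 5 vitellogenin genes have a median of -1.72, whereas the median of the intestine list is 0.16 and the lowest medians besides are those of body wall muscle (-1.07) and epidermis (-0.71).

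Since RNA came from whole animals, fewer cells of a type and less RNA per cell cannot be told apart. Of 18 markers of the intestine, where yolk is made, 2 rose (ifp-1 and gtl-1) and 1 fell (vha-6), with a median of 0.16. Over all probe sets 1.14% rose and 1.53% fell. Their mean level was 5.30 and 5.12 on the RIF arrays and 5.09 and 4.90 on the DMSO arrays. Both RIF arrays thus read above both DMSO arrays for this list. The nearest arrays of the groups, at 5.12 and 5.09, lay closer together than the 2 arrays of either group. Of the 18 markers 7 had negative differences. Of 12 oocyte and eggshell genes 0 rose and 0 fell, which is close to the shares of all probe sets. Of these genes 11 had negative differences, where 45.2% of all probe sets had one. The median of the list was -0.42, and its mean level was 7.47 and 7.80 with RIF and 8.13 and 7.90 with DMSO. The lowest was chs-1, a chitin synthase of the eggshell, at -0.93. The exception, perm-4, was positive on each of its probe sets. For oma-1, oma-2, egg-1, mei-1 and cav-1 the groups overlapped.

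Markers of muscle and epidermis also read lower. Of 10 genes of body wall muscle 5 fell on the brightest probe set (unc-54, myo-3, unc-15, unc-27 and tnt-2) and pat-10 fell on a dimmer one, with a median of -1.07 and a mean level of 4.51 and 4.03 with RIF and 5.41 and 5.36 with DMSO. Of 8 epidermal genes 2 fell, the collagen genes col-19 (-3.77) and sqt-3 (-1.19), with a median of -0.71. Their mean level was 2.95 and 2.24 with RIF and 3.45 and 3.88 with DMSO. None of 11 neuronal genes (median 0.42) and none of 8 sperm genes (median -0.22) rose or fell. Of all probe sets 1.53% fell and 1.14% rose, so 0 calls in lists this short are close to those shares. Of the sperm genes spe-9, spe-11, gsp-3 and gsp-4 lay within the range of the foreign controls on every array. So did unc-22 of muscle, bli-1 of epidermis and sng-1 of neurons. Both RIF values lay within it for myo-3 (1.06 and 1.49), dpy-7 (1.54 and 0.80) and dpy-5 (1.56 and 0.65). The part of these lists in the vitellogenin values was not tested.

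The probe sets whose profile over the 4 arrays was most like that of the vitellogenins were sought among 2354 that name 1 other gene and have a mean level of at least 6. Each was centred on its own mean and set against the mean profile of the 8 vitellogenin probe sets of single genes, which was -0.46 and -0.72 on the RIF arrays and 0.74 and 0.44 on the DMSO arrays. The 5 nearest, with root mean square differences of 0.05 to 0.10, belong to F54D5.3, ttr-24 (both of its probe sets), asp-5 and spp-10. F54D5.3, known only by its sequence name, read 7.57 and 7.44 with RIF and 8.88 and 8.50 with DMSO. ttr-24, a transthyretin-like gene, read 6.71 and 6.33 with RIF and 7.82 and 7.46 with DMSO on 191098_at. asp-5, which encodes an aspartic protease, read 9.17 and 8.73 with RIF and 10.14 and 9.91 with DMSO. spp-10, a saposin-like gene, read 6.69 and 6.73 with RIF and 8.06 and 7.74 with DMSO. Their differences, -1.08 to -1.32, follow from the way they were chosen. No vitellogenin probe set lies there, since the nearest are vit-6 at -0.83 and vit-4 at -1.54. They are thus like the mean profile, which includes the dim probe set of vit-4, and not like a single member. The differences of ttr-24 (191098_at) and asp-5 were under 2-fold when DMSO replicate 1 was omitted (-0.94 and -0.96), and likewise for RIF replicate 2 (-0.92 and -0.86). The likeness rests on 4 arrays and is a description.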

How the data were processed

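The deposited table holds 1 log2 value per probe set and array, made by the authors. The submitters' processing notes name RMA and Affymetrix Expression Console, and their versions are not given in the sources used here. RMA is known to compress changes of dim probe sets, whose folds can thus be understated. The table lists 22625 probe sets, and the 22548 that are no controls (77) were compared as deposited. The linear models of limma (version 3.58.1, under R 4.3.3) were moderated by eBayes without a trend or a level filter, two-sided, for RIF minus DMSO, and p-values were adjusted by Benjamini-Hochberg over all of them. The study's criterion asks for a change of 2-fold or more with an unadjusted p below 0.05. Probe sets were named from the platform annotation, with symbols updated through RefSeq (20701 of 20766 that name 1 gene). In the lists a gene is represented by its brightest probe set. The 2 arrays per group limit the precision. The groups follow the titles. The procedure was tested on simulated data.

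The members, lists and tests were chosen with earlier results of these data known. The text names every vitellogenin probe set, 12 genes of yolk loading, uptake and control chosen by name, any further gene of those lists past the criterion, and the 5 probe sets of most similar profile. Genes named besides were chosen after their values were seen. Alternatives were limma with a trend and a robust prior, the methods' t-test and its Welch version, a replicate block, each array left out, quantile normalization, centring on the array median or on 111 ribosomal protein probe sets, a filter on level, a 1.5-fold threshold, an adjusted p and leaving out probe sets with endings for shared probes. Sequences were not used here.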

Additional observations from a re-analysis of the deposited data

How the results depend on the processing

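All 123 values of single vitellogenin probe sets under the alternatives were below 0, of which 113 kept their side of the criterion, 9 no longer passed it and 1 newly passed it, and their adjusted p ranged from 0.075 to 1. Of the 10 probe sets, 5 to 7 fell with 1 array left out (median difference -1.88 without RIF replicate 1 and -1.18 without RIF replicate 2), 4 with the methods' t-test, 0 with its Welch version, 0 at an adjusted p under 0.05 and 1, vit-1, of the 3 left without probe sets of shared endings (median -0.83). With the replicate block 6 fell, the same number as without it. Over all probe sets the replicate numbers do not show that the arrays are paired (correlation of deviations 0.10). On the vitellogenin probe sets replicate 1 lay above replicate 2 on all 10 with DMSO and on 9 with RIF. Pairing for them alone was not tested. Most of the 123 vitellogenin values could not have turned in sign. The other tests, the replicate block and the filters leave the difference as it is. Leaving out an array cannot turn it where both RIF arrays lie below both DMSO arrays. Only quantile normalization and centring could have turned it, and they did not. The direction turned for dsc-4 (-0.31 to 0.34 with 1 array left out, -0.046 with median centring, -0.15 with ribosomal centring), mab-3 (-0.10 with ribosomal centring), lin-29 (-0.13 to 0.21 with 1 array left out, -0.019 with median and -0.12 with ribosomal centring) and daf-16 (0.15 without RIF replicate 1, -0.60 without RIF replicate 2). Ribosomal centring moved the median of all probe sets by -0.16.

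Over all probe sets, 346 fell and 257 rose. These were 130 and 108 with the methods' t-test, 53 and 52 with Welch's version, 768 and 680 at 1.5-fold, 6 and 2 at an adjusted p, 304 to 735 and 205 to 464 with 1 array left out (735 fell without DMSO replicate 2, while 464 rose without DMSO replicate 1, 422 when DMSO replicate 2 was omitted and 399 for RIF replicate 2), and 167 fell without shared endings. Higher calls made up a smaller share with centring on ribosomal protein probe sets (517 fell and 173 rose) or on the median (410 fell and 228 rose). Of the yolk pathway genes, with 1 array left out, 0 to 1 fell (1 without DMSO replicate 2) and 0 to 3 rose (0 without RIF replicate 1, 3 without DMSO replicate 1). With Welch's version, ribosomal centring or an adjusted p 0 rose, and 2 rose at 1.5-fold. Of the tissue markers 8 fell and 2 rose. With 1 array left out 4 to 10 fell (4 without RIF replicate 2) and 1 to 3 rose (1 without either DMSO array). Fewer fell with the methods' t-test (2), Welch's version (1), an adjusted p (0) and without shared endings (3), and in each of these 4 settings 0 rose. With median or ribosomal centring 1 rose, and 4 rose at 1.5-fold. These fits take the spread of the group with 2 arrays for the single one. The causes were not tested.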
